A study of Mus musculus with 10 samples.

Results

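The BCL2 family was followed in mouse liver through 10 genes, selected by symbol: the anti-apoptotic Bcl2l1, Mcl1, Bcl2a1b and Bcl2a1d, the effectors Bax and Bak1, and the BH3-only genes Bcl2l11, Bbc3, Pmaip1 and Bmf. They are 10 of the 38922 genes in the tables. Whole livers came from wild-type males of the inbred strain C57BL/6N, aged 6 weeks. Of the 10 mice, 5 were injected into the peritoneum with CD95-Ab, an antibody that activates the death receptor Fas (CD95), at 0.5 µg per g of body weight, and 5 with the same volume of saline, and all were killed 6 h later. The comparison addresses which genes respond while acute liver injury develops. Each mouse gave 1 RNA-seq library, with 25965699 to 62097636 counts after saline (median 34227736) and 27480796 to 44962196 after CD95-Ab (median 29180879), so that 3 counts correspond to 0.0556 to 0.121 CPM (counts scaled to an adjusted total of 1000000 in each mouse). Every p-value below measures the spread between these mice.

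Proteins of the BCL2 family decide whether the outer mitochondrial membrane is breached, the step that releases cytochrome c and starts the caspase cascade. The anti-apoptotic members hold the effectors Bax and Bak in check, and the BH3-only members, named for the single homology domain they share with the rest of the family, bind and neutralise the anti-apoptotic members or engage the effectors directly. In hepatocytes, apoptosis triggered at Fas passes through this step, because the BH3-only protein Bid has to be cleaved to amplify the caspase signal, and BCL-XL and MCL-1 are the main survival proteins of these cells.

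Bcl2a1b and Bcl2a1d are copies of 1 gene, A1, that lie on chromosome 9 with Bcl2a1a and Bcl2a1c, and they are the members with the largest rise below. Reads from them are hard to tell apart, so their sequences come before their values. Over the 519 coding bases of the GENCODE M21 transcripts (GRCm38), Bcl2a1b and Bcl2a1d differed at 6 bases (98.8% identity), Bcl2a1a and Bcl2a1d at 7 (98.7%), and Bcl2a1a and Bcl2a1b at 11 (97.9%). Of the 12 positions at which these 3 copies differ, 7 fall in the first 120 coding bases, which lie in an exon. Those bases are shown 5′ to 3′ with the differing positions in capitals.
Bcl2a1b (chr9:89199360-89199479, plus strand): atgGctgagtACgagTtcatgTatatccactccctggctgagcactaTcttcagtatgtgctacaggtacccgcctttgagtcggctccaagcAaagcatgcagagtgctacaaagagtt
Bcl2a1d (chr9:88731600-88731719, minus strand): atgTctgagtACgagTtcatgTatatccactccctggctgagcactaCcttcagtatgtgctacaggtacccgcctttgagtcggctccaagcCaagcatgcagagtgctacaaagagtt
Bcl2a1a (chr9:88957051-88957170, plus strand): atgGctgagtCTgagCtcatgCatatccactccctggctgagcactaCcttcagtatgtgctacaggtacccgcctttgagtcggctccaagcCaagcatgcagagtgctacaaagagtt
Counted from 1 at the A of the start codon, Bcl2a1b and Bcl2a1d differ in this stretch by G4T, T48C and A94C, the base of Bcl2a1b given first. Of the 420 windows of 100 bases (the read length) in the coding sequence of Bcl2a1b, 127 (30.2%) also occur in Bcl2a1d, and 54.3% of those of Bcl2a1a occur in Bcl2a1d. The fourth copy, Bcl2a1c, is annotated with only 387 coding bases. It is 82.2% to 82.7% identical to the others and shares 0 such windows with them. RSEM shared out reads that match several copies, so the counts of the single copies are uncertain and their sum is given as well.

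Promoters were searched in the 250 bases before the transcription start, on both strands, among the 32851 RefSeq promoters of GRCm38.p6, which cover 9 of the 10 members. The pattern TGANTCA, a loose form of the AP-1 motif that allows any central base, occurred in 6.75% of all promoters. Among the members it occurred in those of Bcl2a1b and Bcl2a1d, each time as TGAATCA, so a strict AP-1 site is not shown. The stretch around it is given for the copies that moved together, with the match in capitals. It lies 164 bases before the start in Bcl2a1b, 114 in Bcl2a1d and 120 in Bcl2a1a.
Bcl2a1b (chr9:89199084-89199140, plus strand): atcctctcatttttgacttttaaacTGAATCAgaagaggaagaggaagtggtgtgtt
Bcl2a1d (chr9:88731933-88731989, minus strand): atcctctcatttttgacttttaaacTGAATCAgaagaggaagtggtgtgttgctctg
Bcl2a1a (chr9:88956775-88956831, plus strand): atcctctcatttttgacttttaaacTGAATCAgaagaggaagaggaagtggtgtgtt
The FOXO motif GTAAACA was found in 3.17% of all promoters, and among the members in those of Bcl2l11 and Bbc3. In Bcl2l11 it lies 227 bases before the start, in capitals here, and is shown because FOXO factors are known regulators of this gene.
Bcl2l11 (chr2:128125788-128125842, plus strand): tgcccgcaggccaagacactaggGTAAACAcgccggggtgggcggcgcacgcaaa
The NF-κB consensus occurred in 7.25% of all promoters and in those of Bcl2l1 and Bbc3 among the members. The cyclic AMP response element TGACGTCA occurred in 1.55% of all promoters and in 0 of the members. The shares count promoters, and the 9 members have 16 of them. Bcl2l1, Bbc3 and Bcl2l11 each have further promoters in which the motifs named for them did not occur. These matches are letters in a window and were not tested for binding.

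After CD95-Ab, all 4 anti-apoptotic members were higher in the liver, as were 1 of 2 effectors (Bak1) and 3 of 4 BH3-only members (Bcl2l11, Bbc3 and Pmaip1), while the BH3-only member Bmf fell and Bax did not pass the test. A gene was called at an FDR, the Benjamini-Hochberg adjusted p of the edgeR quasi-likelihood test over all 13719 genes tested, of 0.05 or less. Of those genes 47.3% were called, 25.4% as higher and 22.0% as lower, and 8 of the 10 members were called as higher. At the additional threshold of a log2 fold change of 2 or more, 4 members were called (Bcl2a1b, Bcl2a1d, Pmaip1 and Bcl2l1), beside 6.59% of all genes tested. At -2 or less, 0 members were called by edgeR, beside 1.11% of all genes tested. Bmf, at -1.98, was called as lower (edgeR FDR = 0.00167) and fell just short of this fold threshold. The median log2 fold change was 1.19 over the members and 0.0064 over all genes tested. All 10 members passed the filter on low counts. For Bcl2a1b, Bcl2a1d and Pmaip1 the saline mice alone fell short of it, so that passing needed mice injected with CD95-Ab. The filter thus favoured a rise in these members, and the count and the median are descriptions. In 7 members every mouse injected with CD95-Ab lay above every saline mouse, and in 1 every such mouse lay below, against 18.6% and 14.7% of all genes tested. Of these 8, 5 passed the filter in both groups (Bcl2l1, Mcl1, Bak1, Bcl2l11 and Bmf). Each had p = 0.00794 in the exact two-sided permutation test over mice, the smallest that 5 against 5 mice allow. Complete separation always gives this p, so it adds no support beyond the separation itself. The same permutation test gave p = 0.103 for Bax and p = 0.0873 for Bbc3, in which the groups overlapped.

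**Figure D1:**
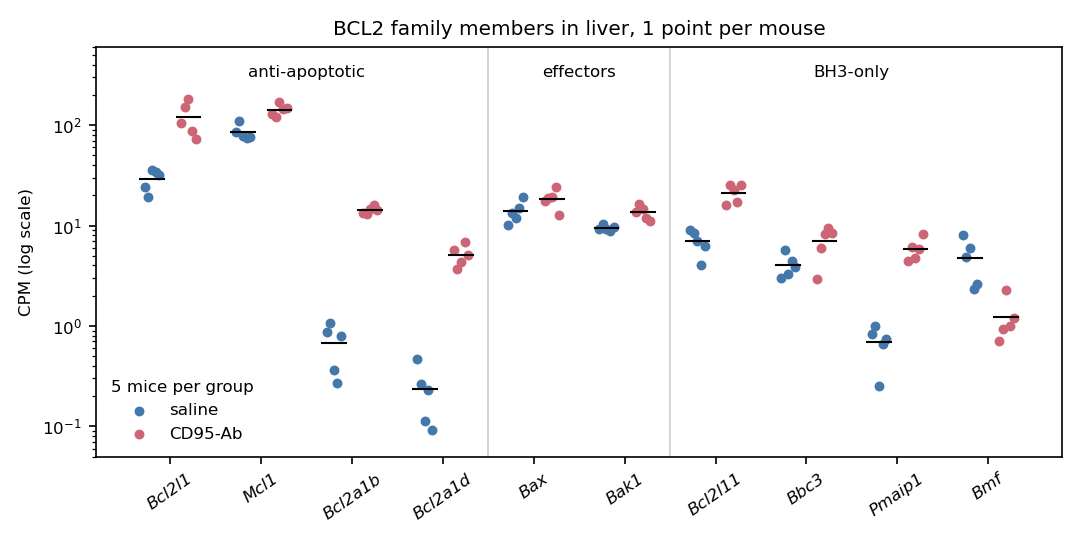
CPM of each of the 10 members (log scale) by gene, with 1 point per mouse (saline blue, CD95-Ab red, 5 mice per group) and a line at each group mean. The point clouds do not overlap except in Bax and Bbc3, and Bmf is the 1 gene with the saline mice on top.

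Bcl2l1 (chromosome 2, 152780668 to 152831728, GRCm38) encodes BCL-XL, which sequesters Bax, Bak and BH3-only proteins. Its level was 24.1, 19.3, 35.6, 33.9 and 31.8 CPM in the saline mice and 105, 152, 183, 87.1 and 71.9 CPM in the mice injected with CD95-Ab. The groups were well apart, although the highest treated mouse, replicate 3, was far above the lowest, replicate 5. The mean rose from 28.9 ± 6.96 to 120 ± 46.2 CPM (SD, n = 5 mice per group), a log2 fold change of 2.05 (SE 0.27, edgeR FDR = 8.71e-05) or 4.13-fold, with a 95% interval of 1.43 to 2.67 on the log2 scale. Leaving out each mouse in turn gave 1.84 to 2.19.

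Mcl1 (chromosome 3, 95658788 to 95663176) encodes MCL-1, a short-lived survival protein that hepatocytes depend on. The saline mice had 86.3, 109, 78.4, 75.0 and 76.9 CPM and the mice injected with CD95-Ab 129, 121, 168, 145 and 147 CPM. The nearest mice of the groups, saline replicate 2 and CD95-Ab replicate 2, were close to each other, so the separation was narrow but complete. The mean rose from 85.1 ± 14.1 to 142 ± 18.2 CPM, a log2 fold change of 0.74 (SE 0.14, edgeR FDR = 0.00114) or 1.67-fold.

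Bcl2a1b (chromosome 9, 89199209 to 89207827) encodes a copy of A1, an anti-apoptotic protein best known from neutrophils and other blood cells. It was barely detected after saline, at 0.870, 1.07, 0.366, 0.269 and 0.797 CPM (7 to 43 counts), and stood at 13.4, 13.1, 14.7, 16.1 and 14.3 CPM (370 to 645 counts) after CD95-Ab. The mice injected with CD95-Ab lay closer together, relative to their mean, than in any other member. The mean rose from 0.674 ± 0.342 to 14.3 ± 1.18 CPM, a log2 fold change of 4.37 (SE 0.29, edgeR FDR = 9.76e-07) or 20.7-fold.

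Bcl2a1d (chromosome 9, 88723285 to 88731914) encodes another copy of A1 and followed the same course at a lower level. It had 0.470, 0.267, 0.113, 0.231 and 0.0927 CPM (4 to 20 counts) after saline and 5.68, 3.69, 4.38, 6.78 and 5.11 CPM (110 to 231 counts) after CD95-Ab. The log2 fold change was 4.44 (SE 0.38, edgeR FDR = 4.08e-06), with every treated mouse far above every saline mouse. The identifier of this gene in the tables is absent from GENCODE M21, and its symbol came from the gene list published with the study. The gene lists that the paper describes hold genes it found most induced in these same samples. Bcl2a1d may thus have been named only because it rose, and its call is a description. Without Bcl2a1d, 7 of the remaining 9 members were called as higher. With the reads of all Bcl2a1 copies added into 1 count per mouse, their division no longer matters. The log2 fold change of this sum was 4.47 (SE 0.28, edgeR FDR = 7.17e-07). The sum includes Bcl2a1d and Bcl2a1a, both named from the published list.

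Neutrophil marker genes rose with the Bcl2a1 copies. All 6 markers tested of the 8 listed (among them S100a8, S100a9 and Cxcr2) were called as higher, beside 25.4% of all genes tested. For Retnlg and Mmp8 the saline mice alone fell short of the filter on low counts, so the filter favoured a rise in them. The count of calls is thus a description. The summed level of all 8 went from 4.08 to 10.6 CPM after saline to 109 to 438 CPM after CD95-Ab. Ly6g, a defining surface marker, had 2 to 7 counts after saline and 5 to 16 after CD95-Ab. The neutrophil sum was lowest in CD95-Ab replicate 1 at 109 CPM, whereas Bcl2a1b in that mouse, at 13.4 CPM, was close to the other 4. The part of neutrophils in the rise of the Bcl2a1 copies was not tested. In bulk liver RNA, a change in the number of cells of a type and a change in the RNA per cell cannot be told apart.

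The effectors Bax and Bak, which form the pores in the outer mitochondrial membrane, had the smallest log2 fold changes of the 10 members, and 1 of the 2 passed the test. Bax (chromosome 7, 45461697 to 45466898) had 10.2, 13.4, 11.9, 14.9 and 19.2 CPM after saline and 17.5, 18.8, 19.3, 23.9 and 12.8 CPM after CD95-Ab. The groups overlapped through 1 mouse on each side, saline replicate 5 and CD95-Ab replicate 5. The log2 fold change was 0.41 (SE 0.19, 95% interval -0.04 to 0.85, edgeR FDR = 0.103). Without CD95-Ab replicate 5 it was 0.52 with an edgeR FDR of 0.0392, and without saline replicate 5 it was 0.55 with an edgeR FDR of 0.0271.

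Bak1 (chromosome 17, 27019810 to 27029009) had 9.24, 10.3, 9.27, 8.85 and 9.59 CPM after saline, the tightest group of all members, and 13.7, 16.6, 14.5, 11.7 and 11.2 CPM after CD95-Ab. Every treated mouse was higher. The mean rose from 9.44 ± 0.525 to 13.5 ± 2.18 CPM, a log2 fold change of 0.52 (SE 0.13, edgeR FDR = 0.00548) or 1.43-fold. With plain library totals in place of the TMM-adjusted ones it was 0.44 and the edgeR FDR was 0.0527, just short of the threshold. Exons of Bak1 overlap those of Ggnbp1 on the opposite strand, and with no strand information stated for the counting, reads there cannot be assigned with certainty.

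Among the BH3-only genes, Bcl2l11 (chromosome 2, 128126038 to 128162547) encodes BIM, which binds all the major survival proteins of the family. It had 9.06, 8.39, 7.07, 4.08 and 6.32 CPM after saline and 15.9, 25.6, 22.4, 17.2 and 25.5 CPM after CD95-Ab. The lowest treated mouse was well above the highest saline mouse. The mean rose from 6.98 ± 1.95 to 21.3 ± 4.57 CPM, a log2 fold change of 1.61 (SE 0.22, edgeR FDR = 0.000107) or 3.04-fold.

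Pmaip1 (chromosome 18, 66458533 to 66465565) encodes NOXA, a selective antagonist of MCL-1 and A1. It had 0.823, 1.01, 0.254, 0.654 and 0.742 CPM (9 to 40 counts) after saline and 4.40, 6.18, 4.70, 5.81 and 8.28 CPM (118 to 374 counts) after CD95-Ab. No mouse of either group came near the other group. The log2 fold change was 3.07 (SE 0.31, edgeR FDR = 1.38e-05), an 8.39-fold rise and the largest of the BH3-only members.

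Bbc3 (chromosome 7, 16308393 to 16318205) encodes PUMA, a p53 target that binds all the major survival proteins. It had 3.03, 5.72, 3.30, 4.39 and 3.84 CPM after saline and 2.95, 5.92, 8.24, 9.37 and 8.37 CPM after CD95-Ab. Of the treated mice, 4 were above all saline mice, replicate 2 only just, and replicate 1 was the lowest of all 10. The log2 fold change was 0.78 (SE 0.29, edgeR FDR = 0.0410), while the exact permutation test gave p = 0.0873. The call was lost in 13 of 21 alternative settings, among them 8 of the 10 fits with 1 mouse left out, whose FDR in edgeR ran from 0.00351 to 0.0934. Of these fits, those without CD95-Ab replicate 1 and without saline replicate 2 kept the call, so the rise of Bbc3 is the least secure of the 8.

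Bmf (chromosome 2, 118528757 to 118549687) encodes a BH3-only protein held at the cytoskeleton through a dynein light chain, and it was the 1 member that fell. It had 8.05, 4.89, 6.00, 2.35 and 2.61 CPM after saline and 0.706, 0.924, 2.27, 1.01 and 1.2 CPM (22 to 57 counts) after CD95-Ab. The saline mice varied widely, and the lowest of them, replicate 4, was barely above CD95-Ab replicate 3. The mean went from 4.78 ± 2.39 to 1.22 ± 0.612 CPM, a log2 fold change of -1.98 (SE 0.40, edgeR FDR = 0.00167) or 3.94-fold lower. Leaving out each mouse in turn gave -2.31 to -1.71, and without CD95-Ab replicate 3, saline replicate 4 or saline replicate 5 it passed -2.

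**Figure D2:**
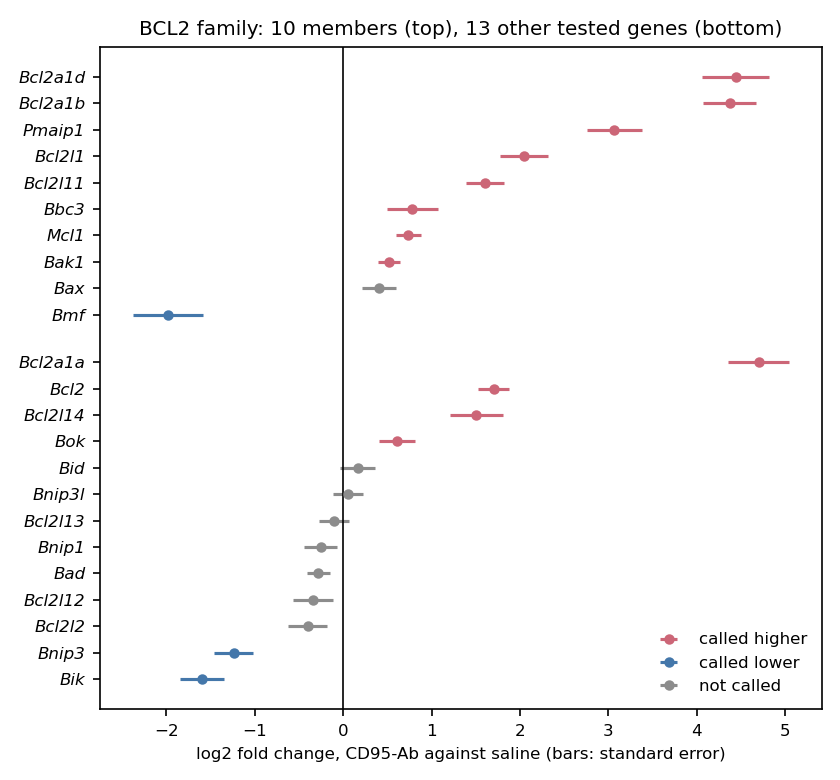
Log2 fold change of CD95-Ab against saline with its standard error for the 10 members (top) and the 13 other tested genes of the family (bottom), coloured by call at an FDR of 0.05. The members run from -1.98 (Bmf) to 4.44 (Bcl2a1d), and Bcl2a1a at 4.70 stands beside the other Bcl2a1 copies.

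Levels of different genes were compared per transcript length, on the deposited FPKM. After saline, Mcl1 was highest at 25.9 ± 6.67 FPKM, followed by Bax at 17.4 ± 2.62 and Bcl2l1 at 12.8 ± 2.80, and the ranges of neighbours in this order overlapped. A step without overlap led down to Bak1 at 4.37 ± 0.537 FPKM. Below it, Bbc3 (2.84), Bcl2l11 (1.81), Bmf (1.16), Bcl2a1b (0.918), Bcl2a1d (0.344) and Pmaip1 (0.280) formed a series in which each overlapped the next. After CD95-Ab, Bcl2l1 stood first at 50.1 ± 18.0 FPKM, and its range overlapped that of Mcl1 at 40.1 ± 4.20. Bax at 21.9 ± 3.67 and Bcl2a1b at 18.2 ± 1.21 FPKM came next, apart from those above and from Bcl2a1d at 6.73 ± 1.59 below. Bak1 (6.17), Bcl2l11 (5.29), Bbc3 (4.28) and Pmaip1 (2.21) overlapped in sequence, and Bmf was last at 0.296 ± 0.127 FPKM, below the range of Pmaip1.

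Among the 4 anti-apoptotic members, which leave out Bcl2, Bcl2l2 and Bcl2a1a, the share of Mcl1 fell and those of Bcl2a1b and Bcl2a1d rose. Summed over the 4 genes, their level was 40.0 ± 5.82 FPKM (32.1 to 47.8) after saline and 115 ± 17.6 FPKM (93.1 to 136) after CD95-Ab. Mcl1 made up 64.1% ± 7.63 of this sum after saline (58.0% to 76.1%) and 35.4% ± 5.44 after CD95-Ab (28.7% to 42.7%), with no overlap between mice. With the Bcl2a1 copies left out of the sum, the share of Mcl1 was 66.3% ± 8.70 after saline and 45.9% ± 9.44 after CD95-Ab. Bcl2l1 took 32.8% ± 8.82 and 42.4% ± 9.77, with overlapping ranges. Bcl2a1b went from 2.25% ± 1.12 to 16.2% ± 2.85 and Bcl2a1d from 0.831% ± 0.569 to 6.05% ± 1.98.

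The sum of the 4 BH3-only genes was 6.09 ± 1.77 FPKM after saline and 12.1 ± 2.41 FPKM after CD95-Ab. In it the share of Bmf went from 18.4% ± 7.60 to 2.46% ± 0.984 and that of Pmaip1 from 4.63% ± 1.67 to 18.3% ± 3.48, neither with overlap. Bcl2l11 went from 29.0% ± 4.64 to 44.0% ± 7.08, and Bbc3 from 48.0% ± 10.6 to 35.2% ± 8.79. Between the effectors the shares overlapped. Bax held 79.7% ± 3.55 of their sum after saline and 77.9% ± 3.20 after CD95-Ab. These are shares of transcript, not of protein, and they carry no test.

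**Figure D3:**
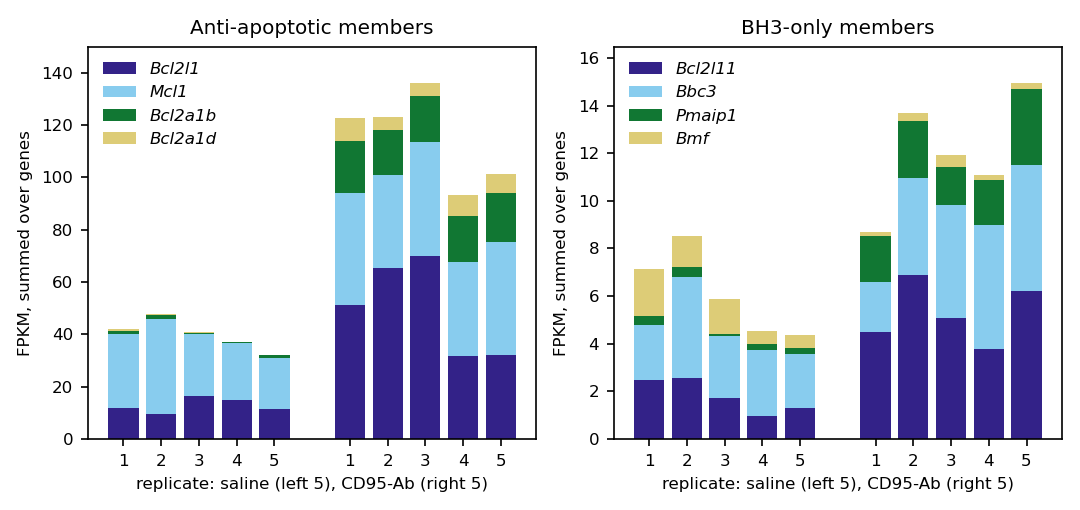
FPKM summed over the 4 anti-apoptotic (left) and the 4 BH3-only members (right) in each of the 10 mice, with stacked bars from 0 coloured by gene. The anti-apoptotic sums lie between 32.1 and 47.8 in the saline mice and between 93.1 and 136 in the mice injected with CD95-Ab.

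Of 17 other genes of the BCL2 family in the tables, 13 were tested, of which 4 rose, 2 fell and 7 did not pass, near the 25.4% higher and 22.0% lower of all genes tested. Without CD95-Ab replicate 4, 4 were called as lower, and with at least 10 counts in every mouse 2 of 11 were called as higher. Their median log2 fold change was -0.10. Bcl2a1a, a further A1 copy, rose from 0.220 ± 0.149 to 5.90 ± 0.416 CPM (log2 fold change 4.70, SE 0.34). It was named from the same published list as Bcl2a1d, so its place among the 4 that rose is a description. Bcl2, the survival gene that gave the family its name, rose from 0.924 ± 0.147 to 3.03 ± 0.293 CPM (log2 fold change 1.70, SE 0.18). The remaining rises were in Bcl2l14 and Bok. Bcl2l14 (1.51, SE 0.30) had only 7 to 13 counts after saline. In the effector-like Bok (0.61, SE 0.21, edgeR FDR = 0.0297) the groups overlapped. For Bcl2a1a and Bcl2l14 the saline mice alone fell short of the filter on low counts. The filter thus favoured a rise in them, and the count of 4 is a description.

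The falls among these genes were in Bik, a BH3-only gene (log2 fold change -1.60, SE 0.25), and in Bnip3, known for a role in mitophagy, from 229 ± 47.8 to 97.4 ± 30.8 CPM (log2 fold change -1.24, SE 0.22). Bid, the link between Fas and mitochondria, is activated by cleavage of its protein, and its transcript had a log2 fold change of 0.17 (SE 0.20, edgeR FDR = 0.515). Bcl2a1c had 0 or 1 count after saline and 3 to 16 counts after CD95-Ab and was not tested, as were Bcl2l10, listed at 0 in every mouse, Hrk and Bcl2l15.

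Genes of mitochondrial proteins that work with the family were examined at the transcript level. Of 13 such genes, all tested, edgeR called 0 as higher, with 0 at an unadjusted p under 0.05 and 0 by DESeq2, and 4 as lower, with a median log2 fold change of -0.22. The background over all genes tested was 25.4% higher and 22.0% lower, and only 2 of the 13 were called as lower without CD95-Ab replicate 1, without saline replicate 4 or at an FDR of 0.01. The 4 were Vdac1, a channel of the outer membrane (-0.60, SE 0.12), Aifm1, a flavoprotein that can leave mitochondria during cell death (-0.45, SE 0.12), Oma1, an inner membrane protease (-0.43, SE 0.15), and Mtch2, a receptor of truncated Bid (-0.38, SE 0.13). Cycs, which encodes cytochrome c, had a log2 fold change of 0.27 (SE 0.24, edgeR FDR = 0.381).

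Among 15 regulators of the family in the tables, 14 were tested, of which 7 rose and 3 fell, beside 25.4% higher and 22.0% lower of all genes tested. At an FDR of 0.01, 1 was called as lower. The median log2 fold change was 0.44. The largest rises were in Nfkb1 (2.30, SE 0.13) and Rela (1.33, SE 0.15), NF-κB subunits that can drive Bcl2l1 and Bcl2a1, in Ddit3 (1.55, SE 0.32), which encodes the stress factor CHOP, and in Stat3 (0.97, SE 0.13). Trp53, whose product p53 can induce Bbc3 and Pmaip1, rose by less, to 25.8 ± 6.62 from 14.8 ± 2.63 CPM (log2 fold change 0.80, SE 0.18). The falls were in E2f1 (-0.82, SE 0.23), in Foxo3 (-0.81, SE 0.26), a FOXO factor known to induce Bcl2l11 and Bbc3, and in Dynll2 (-0.80, SE 0.13), the dynein light chain that anchors BMF. Dynll2 and Bmf were thus both lower, while Dynll1, the related light chain that anchors BIM, rose (0.88, SE 0.15).

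The genes that followed a member most closely across the 10 mice were found by the root mean square difference between centred log2 CPM profiles, over 12128 tested genes with a mean of at least 1 CPM. For Mcl1 these were Grk2 (0.138) and Shq1 (0.142), where the median gene was at 0.576. For Bcl2l1 they were Snx10 (0.213) and Cd63 (0.232), with a median of 1.14. Bcl2a1b was followed by Bcl2a1a (0.267), with which it shares reads, and by Plek (0.303), with a median of 2.30. Bcl2l11 was followed by Pqlc3 (0.154) and Cd84 (0.211), with a median of 0.958, and Pmaip1 by Cd53 (0.292) and Fmnl1 (0.296), with a median of 1.64. All these values are distances on the log2 scale that include the difference between the groups, and they are descriptions.

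Markers of other cell types moved along with the members, where 25.4% of all genes tested were called as higher and 22.0% as lower. The hepatocyte markers, which include Alb and Cyp2e1, were abundant in every mouse, as the liver label implies, but their summed level went from 96836 to 122247 CPM after saline to 41316 to 76851 CPM after CD95-Ab, and 4 of 6 fell. Endothelial markers (4 of 5 higher, 38.8 to 93.8 against 131 to 255 CPM) and stellate cell markers (2 of 4 higher, 109 to 152 against 268 to 434 CPM) lay above the saline range in every treated mouse. So did T and NK cell markers (5 of 6 higher), at 0.930 to 3.39 against 4.36 to 6.32 CPM. The stellate sum is mostly Dcn and Reln, the 2 called as higher. Col1a1 (log2 fold change 0.67, edgeR FDR = 0.185) and Lrat (-0.12, edgeR FDR = 0.772) were not called. Macrophage markers (2 of 6 higher, 87.4 to 270 against 162 to 328 CPM) overlapped between the groups. So did B cell markers (3 of 4 higher, 0.648 to 3.68 against 2.28 to 13.6 CPM). Cholangiocyte markers (2 of 3 higher, 0.741 to 2.65 against 2.55 to 13.8 CPM) overlapped as well. In the saline mice alone, the T and NK cell markers, the B cell markers, Krt19 and Krt7 fell short of the filter on low counts. The filter thus favoured a rise in them, and their counts of calls are descriptions. Transcripts without a poly(A) tail, summed over Rn7sk, Rmrp and Rpph1, went from 0.278 to 0.885 CPM to 357 to 1305 CPM, so the libraries of the groups also differed in the kind of RNA they held. The part of these shifts in the rise of the family was not tested.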

How the data were processed

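Liver RNA of 10 mice was compared, 5 per group, grouped by the sample labels. The authors assigned read pairs to genes with RSEM 1.2.19. The expected counts deposited per gene are whole numbers and not normalized, and the FPKM values deposited by the authors are scaled for length and library total. The methods name a human annotation, but the identifiers are of mouse genes, and the mouse release and build are not given in the sources used here. Symbols and positions came from GENCODE M21 (37606 identifiers), 14 symbols from the study's gene list, and 1302 identifiers stayed unnamed. The positions of Bcl2a1d and Bcl2a1a were looked up by symbol, since M21 holds them under other identifiers. Exons of Gm29094 and Gm45808, absent from the tables by identifier, overlap those of Bcl2a1b and Bax. No pair of libraries within a group agreed within sampling noise (chi-square per degree of freedom of at least 39.4 in 20 pairs).

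Genes were filtered with filterByExpr (minimum count 10), scaled with TMM factors and tested with the edgeR 4.0.16 quasi-likelihood test in R 4.3.3, fitting group alone. Standard errors were computed from the F statistic. Single genes were also compared with an exact two-sided permutation test on log2(CPM + 0.1). DESeq2 1.42.0 and limma 3.58.1 (on log2(FPKM + 0.1)) served as alternatives, besides other scalings, filters and thresholds, a replicate block and each mouse left out. Summaries used pandas 2.3.3 and scipy 1.17.1 under Python 3.11.15. The code was tested on simulated counts.

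Named are all members, up to 4 called genes with the largest change per direction of each other list, and the other Bcl2a1 copies. Also named are the 2 genes nearest to 5 members. Outside this rule, Trp53, Dynll1 and a few uncalled or marker genes were chosen after their values were seen. The members and lists were chosen with earlier results of these data known.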

Additional observations from a re-analysis of the deposited data

How the results depend on the processing

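All 207 alternative log2 fold changes of the 10 members kept their sign. Besides Bbc3 (13 of 21 alternatives lost the call), Bak1 (1 of 21) and Bax (called in 2 of 21), no member changed its call. With at least 10 counts in every mouse, 7 members were tested, of which 5 were higher and 1 rose by at least 2 on the log2 scale, and 2 of 11 other BCL2 family genes were higher, because that filter removes genes low after saline. At or below -2, 1 member (Bmf) was called with library totals, with upper quartile factors and without a filter. With library totals 6 members were higher and 3 by 2 or more. At an FDR of 0.01, 2 mitochondrial partners and 1 regulator were lower. The share of Mcl1 after CD95-Ab was 45.9% without the Bcl2a1 copies in the sum. With each mouse left out in turn, edgeR called 7 to 8 members higher and 1 to 1 lower, 3 to 4 by 2 or more and 0 to 1 at -2 or less (1 without CD95-Ab replicate 3, saline replicate 4 or saline replicate 5). In the same fits, 2 to 4 other BCL2 family genes were lower (4 without CD95-Ab replicate 4), and 2 to 5 mitochondrial partners (2 without CD95-Ab replicate 1 or saline replicate 4). The share of Mcl1 ranged from 33.5% to 37.0% after CD95-Ab and from 61.1% to 65.7% after saline.

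Mice with the same replicate number did not consistently deviate together, with 2 of 5 pairs correlated over 0.1. The mean correlation was 0.037, against -0.0062 for different numbers, and 2 of 5 saline mice were closest to their own number. No test was made, so pairing of some mice is not excluded. With the number as a replicate block, edgeR called 8 members higher and 1 lower, and 3 by 2 or more. It called 4 other BCL2 family genes higher and 2 lower, 3 mitochondrial partners lower, and 7 regulators higher and 3 lower. The summed Bcl2a1 counts had a log2 fold change of 4.55 with the block, which changed no call of a member at the FDR threshold. Low counts after saline (4 to 20 per mouse for Bcl2a1d, 7 to 43 for Bcl2a1b and 9 to 40 for Pmaip1) limit the precision of these folds.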
